A study of Arabidopsis thaliana with 4 samples.

Results

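In inflorescence tips of Arabidopsis thaliana, 8 loci were described whose transcript signal was lower in the stomatal patterning mutant tmm-1 than in the line Col-3 gl1. They are AT3G10020, AT2G32150, AT2G15960, AT2G05540, AT1G25275, AT4G14270, AT5G65660 and AT5G66090, named by locus because the gene table gives them no symbol. These 8 were taken by name, with their lower signal in this same comparison already known, from 13286 loci that have a named probe set. Their own values are therefore given as a description, with no p-value. Each has 1 named probe set on the array, and all 8 passed the filter on low signals.

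The study hybridised RNA from inflorescence tips to 4 Affymetrix ATH1 arrays, with 2 for tmm-1 and 2 for Col-3 gl1. The mutant carries the tmm-1 allele of TMM, a receptor-like protein gene of stomatal patterning, and the control carries gl1, a mutation that removes most leaf hairs. The array titles spell the control line in another way than the source name, Col-3 gl1, which is used here. The labels do not say whether tmm-1 also carries gl1, and no named probe set stands for TMM or GL1, so the line labels were not checked on these genes. All plants were grown in a chamber at 22 °C with 16 h of light and 70% humidity and sampled at growth stage 6.10. Each array held a pool, and the labels do not say that pools came from separate plants, so p-values reflect a spread between pools that may be technical. No label mentions an oxygen treatment.

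Plants sense oxygen through transcription factors of the group VII ERF family, which are broken down while oxygen is present and persist when it is scarce. These factors then switch on a core set of genes that includes the fermentation enzymes and several proteins of unknown function. Shoot tips of Arabidopsis are known to hold a niche of low oxygen around the stem cells even in normal air. AT3G10020 belongs to this core set and is one of its proteins of unknown function. Other genes of this comparison, such as regulatory subunits of the SnRK1 kinase, belong to the response to low sugar and energy.

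The median signal of an array was 41.4 and 45.4 units in tmm-1, against 40.8 and 40.7 units in Col-3 gl1. The array of tmm-1 replicate 2 had a raised dim end, with a 10th percentile of 3.07 units, where tmm-1 replicate 1 had 1.61 and the control arrays had 1.59 and 1.54. The highest signal of a Bacillus control probe set, which has no target in plant RNA, was 21.2 units. All 8 loci lay above that level on every array. The labelled tissue could not be checked well, because 1 of 13 listed floral and meristem markers and 1 of 6 anther and pollen markers had a named probe set, and both were under the signal filter. CLV3, a stem cell signal, had 1.12 and 3.92 units in tmm-1, against 1.23 and 3.08 units in Col-3 gl1.

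AT3G10020, the hypoxia gene of the set, had 319 and 265 units in the tmm-1 pools, against 792 and 710 units in the Col-3 gl1 pools. Its mean of 292 ± 37.6 in tmm-1 was 38.9% of the control mean of 751 ± 58.2 (SD, n = 2 each). On the log2 scale with 10 units added to each signal, which shrinks the change of dim genes, the change was -1.34 ± 0.15 (moderated standard error from limma, SE). Here and below this SE rests mostly on the spread over all probe sets, and less on the pools of the gene itself. Both mutant pools lay far below both control pools, and the brighter mutant pool reached 44.9% of the dimmer control pool. In bulk tissue, fewer cells of a type and less RNA per cell cannot be told apart.

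AT2G32150 codes for a hydrolase of the haloacid dehalogenase type. It had 154 and 149 units in tmm-1, against 415 and 326 units in Col-3 gl1. The mutant mean was 40.9% of the control mean, a log2 change of -1.23 ± 0.16. The mutant pools were almost equal, and the spread lay between the control pools.

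AT4G14270 encodes a relative of the dehydration gene ERD15, with a short motif that binds poly(A)-binding proteins. It had 367 and 293 units in tmm-1, against 559 and 537 units in Col-3 gl1. Its mutant mean was 60.2% of the control mean, and its log2 change of -0.72 ± 0.15 was the smallest of the 8. Here the gap was narrowest, since the brighter mutant pool reached 68.3% of the dimmer control pool.

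AT2G05540 and AT5G65660 encode proteins of unusual composition, one rich in glycine and the other of a hydroxyproline-rich glycoprotein family. AT2G05540 had 29.0 and 49.4 units in tmm-1, against 99.8 and 95.9 units in Col-3 gl1, with a log2 change of -1.16 ± 0.21. It was the member whose mutant pools differed most, by 0.61 on the log2 scale, while its control pools differed by 0.05. AT5G65660 had 389 and 457 units in tmm-1, against 759 and 708 units in Col-3 gl1. Its mutant mean was 57.7% of the control mean, with a log2 change of -0.78 ± 0.15. Neither locus overlapped between lines.

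For the remaining 3 loci no function is given here. AT2G15960 showed the deepest difference of the 8, with 209 and 203 units in tmm-1, against 838 and 610 units in Col-3 gl1. Its mutant mean was 28.5% of the control mean and its log2 change was -1.75 ± 0.16. The mutant pools agreed closely, whereas the control pools stood 0.45 apart on the log2 scale, the widest control gap among the 8.

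AT1G25275 had 642 and 610 units in tmm-1, against 1248 and 1154 units in Col-3 gl1. The mutant mean was 52.1% of the control mean, a log2 change of -0.93 ± 0.14, and the pools of each line lay close together. AT5G66090 had 86.3 and 66.9 units in tmm-1, against 144 and 142 units in Col-3 gl1, a log2 change of -0.83 ± 0.18. Its control pools were nearly identical, and both mutant pools lay below them.

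**Figure D1:**
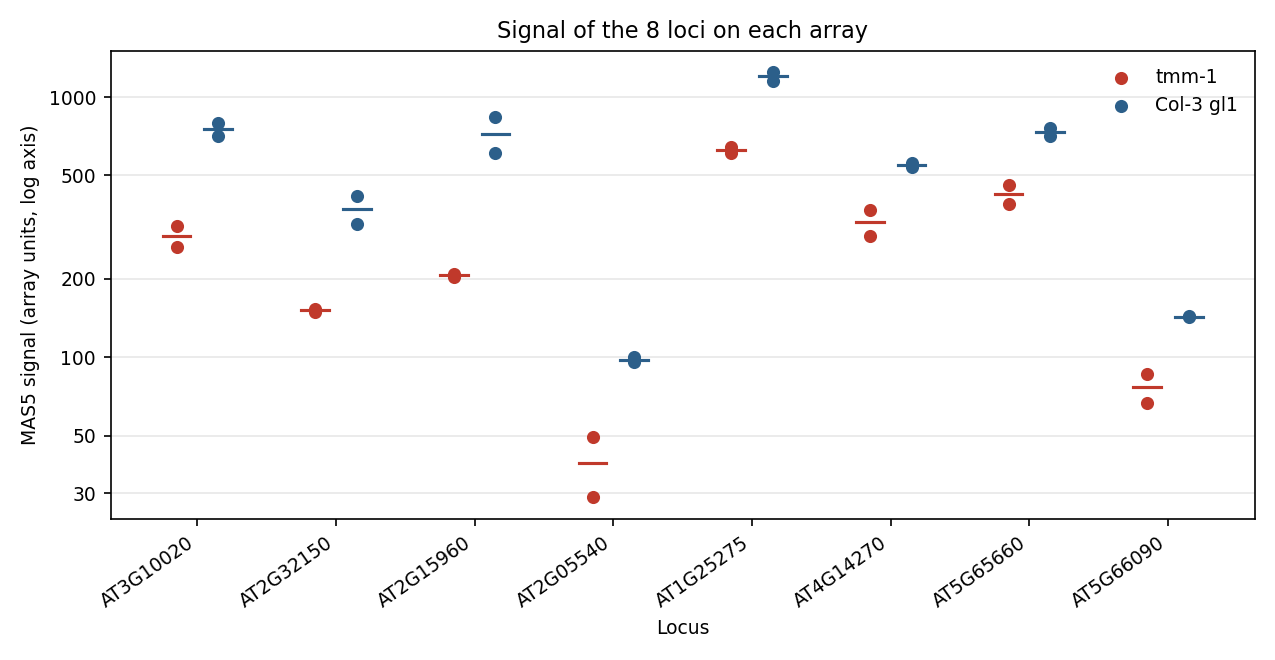
MAS5 signal in array units (log axis) of the 8 loci, with a point for each pool and a bar at the mean of the 2 pools of tmm-1 (red, left) and of Col-3 gl1 (blue, right). At every locus both tmm-1 points lie below both control points, with AT2G15960 at 28.5% and AT4G14270 at 60.2% of the control mean.

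Among the 8 loci the mutant mean thus ran between 28.5% and 60.2% of the control mean, and the median log2 change was -1.05, against 0.03 over all 16960 probe sets tested. All 8 were called lower by limma at an adjusted p under 0.05, a call made for 0.371% of all probe sets tested. Since the loci were chosen on this contrast, that count was fixed by the choice. It also depended on the settings: limma called 0 of the 8 without the intensity trend, 3 without the signal filter and 7 after quantile normalization. In the order of log2 changes from the most negative, AT2G15960 stood at place 4 of all tested probe sets and AT3G10020 at place 13. AT2G32150 and AT2G05540 stood at places 28 and 32, and the other 4 between place 71 and place 185. The typical gap between replicate pools of the 8 was 0.24 in tmm-1 and 0.11 in Col-3 gl1 on the log2 scale (medians), against 0.22 and 0.19 over all tested probe sets. In all 8, Col-3 gl1 replicate 2 was the dimmer control pool, as in 49.0% of all tested probe sets. In 6 of 8, tmm-1 replicate 2 was the dimmer mutant pool, as in 44.9% of all tested probe sets.

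The place of each probe set among the 22746 gene probe sets of its own array gives a view that does not depend on how arrays were scaled. It ranks probe set signals, which depend on the probes too, and is no measure of transcript abundance between genes. AT2G15960 held places 3254 and 3281 from the top on the tmm-1 arrays, against places 691 and 986 on the Col-3 gl1 arrays. AT3G10020 held places 2038 and 2426 in tmm-1, against 740 and 817 in Col-3 gl1. These 2 loci stood above 85.6% to 91.0% of probe sets on the tmm-1 arrays, against 95.7% to 97.0% on the Col-3 gl1 arrays.

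AT2G32150 held places 4472 and 4650 in tmm-1, against 1549 and 2004 in Col-3 gl1. AT2G05540 dropped furthest in places, to 12883 and 10938 in tmm-1, against 6658 and 6942 in Col-3 gl1. AT5G66090 held places 7453 and 9227 in tmm-1, against 4812 and 4946 in Col-3 gl1. These 3 had the largest shifts in places, though a shift also depends on how many probe sets have a similar signal. AT2G15960, with the deepest fall in signal, was not among them. AT1G25275 moved least, with places 940 and 948 in tmm-1, against 433 and 460 in Col-3 gl1. AT4G14270 held places 1759 and 2160 in tmm-1, against 1100 and 1148 in Col-3 gl1, and AT5G65660 held 1660 and 1317 in tmm-1, against 781 and 819 in Col-3 gl1. For every locus both places in the mutant came after both places in the control.

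**Figure D2:**
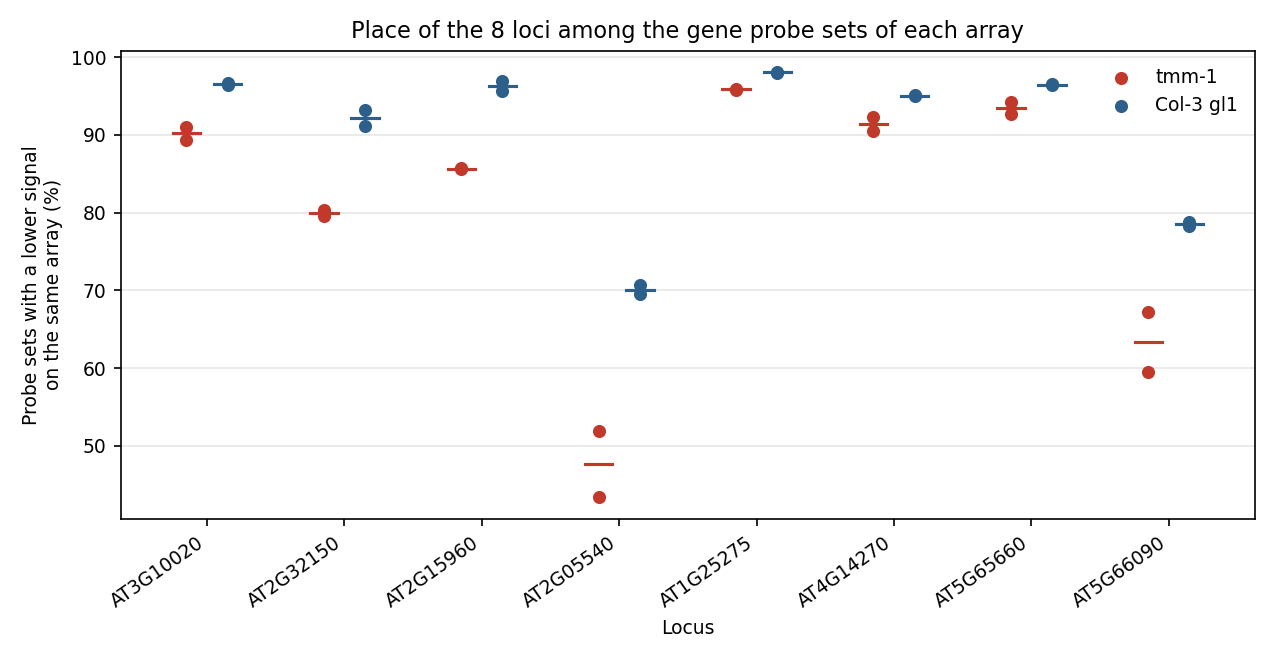
Share of the 22746 gene probe sets of an array (%) whose signal was lower than that of each locus, with a point per pool and a bar at the mean, for tmm-1 (red, left) and Col-3 gl1 (blue, right). AT2G05540 stood above 43.4% and 51.9% of probe sets in tmm-1, against 70.7% and 69.5% in Col-3 gl1, while AT1G25275 stood above 95.8% or more on all arrays.

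Other genes of the oxygen response were read from the same fit, over a list of 47 genes known from hypoxia in Arabidopsis that leaves out the 8 loci. Of these, 22 had a named probe set, and the mean signal of 19 reached the minimum of 10 units. The other 25 had none, among them the fermentation genes ADH1 and PDC1 and the core genes LBD41, HRE1, HRE2, PCO1 and PCO2. The list therefore does not cover the main markers of the core set. None of the 19 passed the test in limma, whereas 0.613% of all probe sets were called in either direction. At an unadjusted p under 0.05 there were 5 of 19, beside 8.81% of all probe sets. The median log2 change of the 19 was -0.23, against 0.03 over all tested probe sets, and 13 of them were negative. Both tmm-1 pools lay below both control pools in 10 of the 19, beside 16.8% of all probe sets. With 1 array left out, where fewer values need to separate, the count was 11 to 14 of 19, beside 29.4% to 33.5% of all probe sets, and without tmm-1 replicate 2 it was 13, beside 33.5%. Both lay above in 1 of the 19, beside 21.5% of all probe sets. The hypoxia list was drawn up with earlier results of these data known, so these counts are not independent evidence.

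Among enzymes of fermentation, PDC2, a pyruvate decarboxylase, had 59.0 and 39.1 units in tmm-1, against 72.7 and 124 units in Col-3 gl1. Its log2 change was -0.86 ± 0.22 (limma, adjusted p = 0.0891), and its control pools lay far apart. The change ranged from -1.20 without Col-3 gl1 replicate 1 (adjusted p = 0.00469 in limma) to -0.51 without Col-3 gl1 replicate 2 (adjusted p = 0.753), so it rests on the pools used. It was -1.10 without tmm-1 replicate 1 (adjusted p = 0.000678 in limma) and -0.61 without tmm-1 replicate 2 (adjusted p = 0.268), and limma called it when pools were paired by number in a replicate block (adjusted p = 0.0369). AT4G17260, a lactate dehydrogenase gene, had 434 and 538 units in tmm-1, against 388 and 466 units in Col-3 gl1, with overlapping pools and a log2 change of 0.18 ± 0.15. PDC2 and the lactate dehydrogenase gene, which act on the same substrate, thus had log2 changes of opposite sign, neither of which passed the test.

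AT3G10040 encodes HRA1, a trihelix factor that holds back the oxygen response, and it is the third gene after AT3G10020 on the chromosome. It had 33.0 and 34.6 units in tmm-1, against 38.1 and 47.6 units in Col-3 gl1, a log2 change of -0.27 ± 0.24 (limma, adjusted p = 0.819). CML38, a calmodulin-like protein gene induced by low oxygen, had 19.9 and 21.6 units in tmm-1, against 34.5 and 31.2 units in Col-3 gl1, a log2 change of -0.48 ± 0.28. Its pools did not overlap, though the mutant pools lay close to the highest Bacillus control signal.

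Among listed proteins of little known function, AT4G27450 had 606 and 560 units in tmm-1, against 712 and 895 units in Col-3 gl1, a log2 change of -0.45 ± 0.15 (limma, adjusted p = 0.253). AT1G33055 had 77.0 and 77.3 units in tmm-1, against 114 and 105 units in Col-3 gl1, a log2 change of -0.46 ± 0.18. The haloacid dehalogenase gene AT5G44730 had 105 and 125 units in tmm-1, against 141 and 132 units in Col-3 gl1. Its log2 change of -0.23 ± 0.17 compares with -1.23 for AT2G32150 of the same enzyme family. These 3 genes had lower signal in both mutant pools, and none passed the test. AT1G33055 and AT5G44730 were named after their values were seen, so they do not stand for the list. In 8 of the 19 listed genes the pools of the lines overlapped. Among these were AT3G03270, with a log2 change of 0.0003 ± 0.16, and AT4G10270, with -0.18 ± 0.17.

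AT5G26200, of the mitochondrial carrier family, had 4.72 and 7.80 units in tmm-1, against 31.6 and 26.0 units in Col-3 gl1. Its mutant pools lay under the Bacillus control signal of 21.2. The log2 change of -1.26 ± 0.38 (limma, adjusted p = 0.192) thus depends on the 10 units added. With an array left out, that change ranged from -1.39 without tmm-1 replicate 2 to -1.12 without tmm-1 replicate 1. AT4G17670 went the other way, with 186 and 177 units in tmm-1, against 111 and 121 units in Col-3 gl1. Its log2 change was 0.61 ± 0.17 (limma, adjusted p = 0.110), and it was called when pools were paired by number in a replicate block (adjusted p = 0.0490). Transcript signals of the oxygen-sensing ERF factors and their breakdown pathway, a list of 7 genes with no named probe set, are not analysed here.

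**Figure D3:**
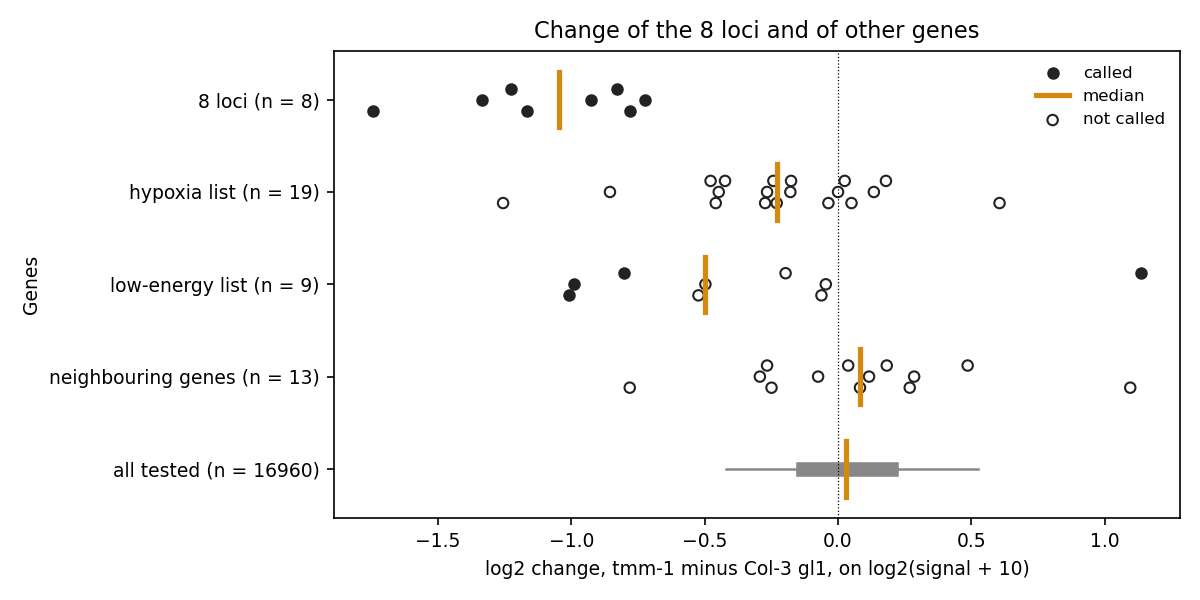
Change between tmm-1 and Col-3 gl1 on log2(signal + 10) for the 8 loci, 19 genes of the hypoxia list, 9 of the low-energy list and 13 neighbouring genes, with filled points for called genes, open points for the others and a bar at each median. The lowest row gives the 5th to 95th percentile (thin line) and the quartiles (thick line) of 16960 probe sets, whose median is 0.03, against -1.05 for the 8 loci and -0.23 for the hypoxia list.

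The low-energy list holds 34 genes tied to sugar starvation, darkness and the SnRK1 kinase, and 9 of them had a named probe set and were tested. Of these, 3 were called lower and 1 higher in tmm-1, beside 0.371% and 0.242% of all probe sets called in those directions. The log2 change was negative in 8 of the 9, beside 45.0% of all tested probe sets. All 4 called genes were known as such when the list was drawn up, so the count is not independent evidence. AKINBETA1, a regulatory subunit of SnRK1, fell to 247 and 227 units in tmm-1, against 511 and 463 units in Col-3 gl1, a log2 change of -1.01 ± 0.15 (limma, adjusted p = 0.000323). MCCA, a subunit of an enzyme of leucine breakdown, and ATL8, a ubiquitin ligase gene, fell by 0.99 and 0.80 on the log2 scale, and PPDK, which makes phosphoenolpyruvate, rose by 1.14. PPDK had control signals of 15.2 and 24.5 units, around the highest Bacillus control signal of 21.2, and its log2 change was 1.46 with 1 unit added to each signal and 0.92 with 20. Without the intensity trend limma called 0 of the 9, and without the signal filter it called 1. With an array left out, the log2 change ran from -0.86 to -0.74 for ATL8 and from 0.91 to 1.36 for PPDK.

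Limma did not call ATL8 without the signal filter (adjusted p = 0.232). After quantile normalization ATL8 lay at the threshold (limma, adjusted p = 0.0498). The median log2 change of the 9 genes was -0.50. AT3G15450, a gene of the same aluminium-induced protein family as AT4G27450 of the hypoxia list, had 3227 and 3475 units in tmm-1, against 3527 and 4178 units in Col-3 gl1. Its log2 change was -0.20 ± 0.14 and it was not called. Markers of green tissue gave summed signals of 3700 and 3931 units in tmm-1, against 4800 and 3983 units in Col-3 gl1, over RCA, LHCB4.1 and PRK, 3 of the 7 listed. The ranges of these sums did not overlap between lines, none of the 3 genes passed the test, and their part in the lower signal of the 8 loci was not tested. The stomatal genes SPCH, MUTE and FAMA were 3 of the 6 listed. They summed to 115 to 127 units in tmm-1, against 111 to 117 units in Col-3 gl1. This sum joins genes of opposite sign, and MUTE was under the signal filter. SPCH had 76.1 and 46.2 units in tmm-1, against 46.1 and 45.6 units in Col-3 gl1. Its log2 change of 0.32 ± 0.22 rests mostly on tmm-1 replicate 1. FAMA was lower in both tmm-1 pools, with a log2 change of -0.21 ± 0.20, and neither gene passed the test. The 1 touch and wounding gene of 5 with a probe set was AT1G27730. It had 69.3 and 90.2 units in tmm-1, against 73.7 and 65.7 units in Col-3 gl1.

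Genes next to the 8 loci were examined because they share the position but took no part in the choice. The RefSeq gene order gives 48 neighbours, 3 on each side of a locus, of which 16 had a named probe set and 13 were tested. None of the 13 was called in limma, beside 0.613% of all probe sets, and 1 had an unadjusted p under 0.05. Their median log2 change was 0.08, against -1.05 for the 8 loci. That median was -0.07 without tmm-1 replicate 2. Both tmm-1 pools lay below both control pools in 4 of the 13, beside 16.8% of all probe sets, and above them in 3, beside 21.5%.

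AT3G10030, the next gene after AT3G10020, had 66.6 and 77.3 units in tmm-1, against 91.0 and 83.5 units in Col-3 gl1, a log2 change of -0.25 ± 0.19 where AT3G10020 had -1.34. AT2G05530, a glycine-rich protein gene beside AT2G05540, had 15.3 and 37.6 units in tmm-1, against 16.2 and 13.4 units in Col-3 gl1. Its pools overlapped, and only the 37.6 of tmm-1 replicate 2 exceeded the Bacillus control signal. Its log2 change was 0.49 ± 0.36, or 0.03 without that array. AT5G65650, beside AT5G65660, had 138 and 134 units in tmm-1, against 161 and 177 units in Col-3 gl1, a log2 change of -0.29 ± 0.16 (limma, adjusted p = 0.647).

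AT5G66120, the third gene after AT5G66090, had 170 and 181 units in tmm-1, against 132 and 157 units in Col-3 gl1, a log2 change of 0.27 ± 0.17 (limma, adjusted p = 0.688). AT2G32140, beside AT2G32150, had 7.76 and 32.4 units in tmm-1, against 2.16 and 3.53 units in Col-3 gl1. All of these but the 32.4 of tmm-1 replicate 2 lay under the Bacillus control signal. The log2 change of AT2G32140 was 1.10 ± 0.52 (limma, adjusted p = 0.544), or 0.47 without that array. The pseudogene AT2G15920, the third before AT2G15960, had 6.78 and 2.19 units in tmm-1, against 25.1 and 7.19 units in Col-3 gl1, of which only Col-3 gl1 replicate 1 exceeded the Bacillus control signal.

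**Figure D4:**
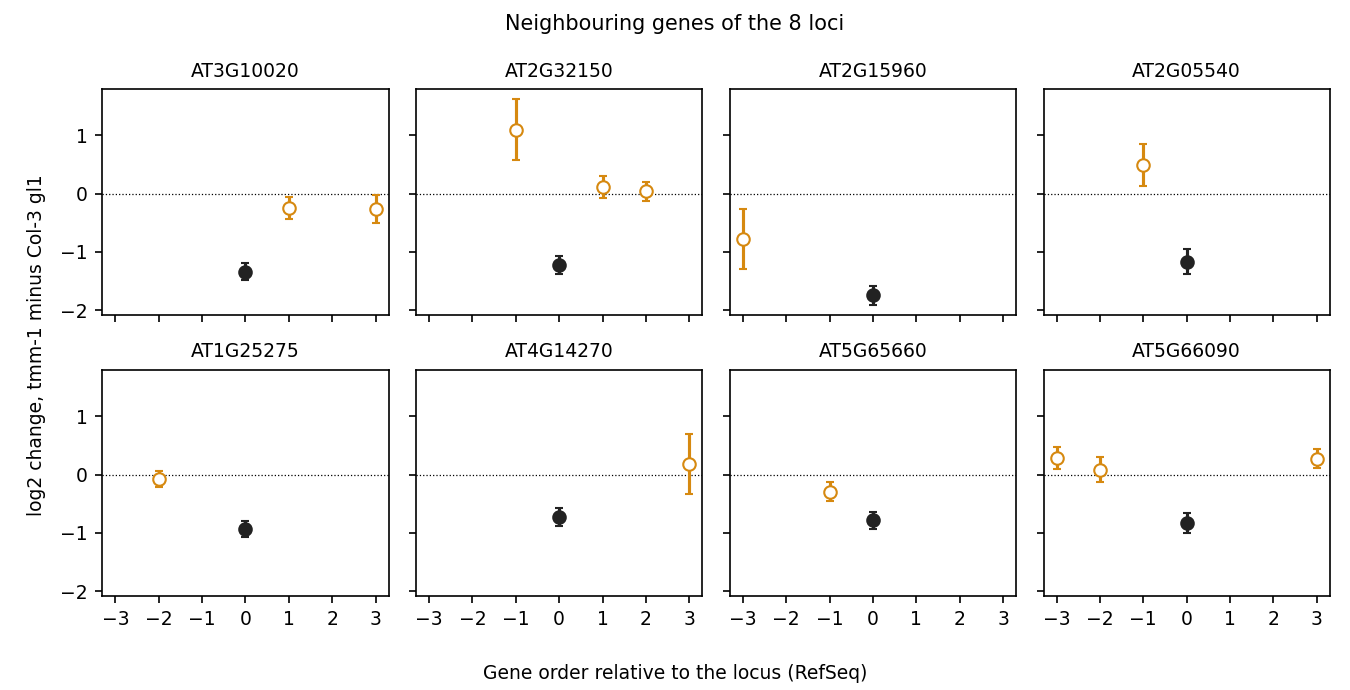
Change between tmm-1 and Col-3 gl1 on log2(signal + 10), with bars of 1 SE, for each of the 8 loci (filled, at 0) and for the tested genes up to 3 places away in the RefSeq gene order (open). The loci stand between -1.75 and -0.72, and the neighbours with a median of 0.08.

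The genes whose profile over the 4 arrays was most like the mean profile of the 8 loci were found among 3317 other loci with a mean signal of at least 100 units. Likeness was the Euclidean distance between log2 signals, each centred over the 4 arrays. With 4 arrays in 2 lines, it picks genes with a difference of like size between the lines, and these are values of a chosen set with no test. AKINBETA1 was nearest, at a distance of 0.11, where the nearest of the 8 loci themselves, AT1G25275 and AT2G32150, stood at 0.17 and 0.18 and the farthest, AT2G15960, at 0.69.

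AT2G20670 came next, at a distance of 0.22, with 208 and 250 units in tmm-1, against 484 and 441 units in Col-3 gl1. AT1G75180 stood at 0.23, with 86.6 and 67.4 units in tmm-1, against 174 and 153 units in Col-3 gl1. AT5G11070 stood at 0.26, with 114 and 99.8 units in tmm-1, against 204 and 208 units in Col-3 gl1. AT1G56220, a dormancy-associated gene, stood at 0.28, with 854 and 653 units in tmm-1, against 1671 and 1356 units in Col-3 gl1. All 5 had mutant means between 47.2% and 51.8% of the control mean.

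Each array was left out in turn to see how far a single pool sets the values of the 8 loci, and 8 of 8 log2 changes stayed negative in each case. AT2G15960 ranged from -1.97 without Col-3 gl1 replicate 2 to -1.52 without Col-3 gl1 replicate 1, so its size rests on which control pool is used. AT2G05540 ranged from -1.47 without tmm-1 replicate 2 to -0.86 without tmm-1 replicate 1. AT4G14270 ranged from -0.88 without tmm-1 replicate 1 to -0.57 without tmm-1 replicate 2. AT3G10020 lay between -1.46 and -1.21, AT2G32150 between -1.40 and -1.06 and AT5G66090 between -0.99 and -0.67. AT5G65660 lay between -0.90 and -0.67, and AT1G25275 had the narrowest range, -0.98 to -0.87. As the pools of the lines do not overlap at these loci, the sign could not turn when an array was left out.

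**Figure D5:**
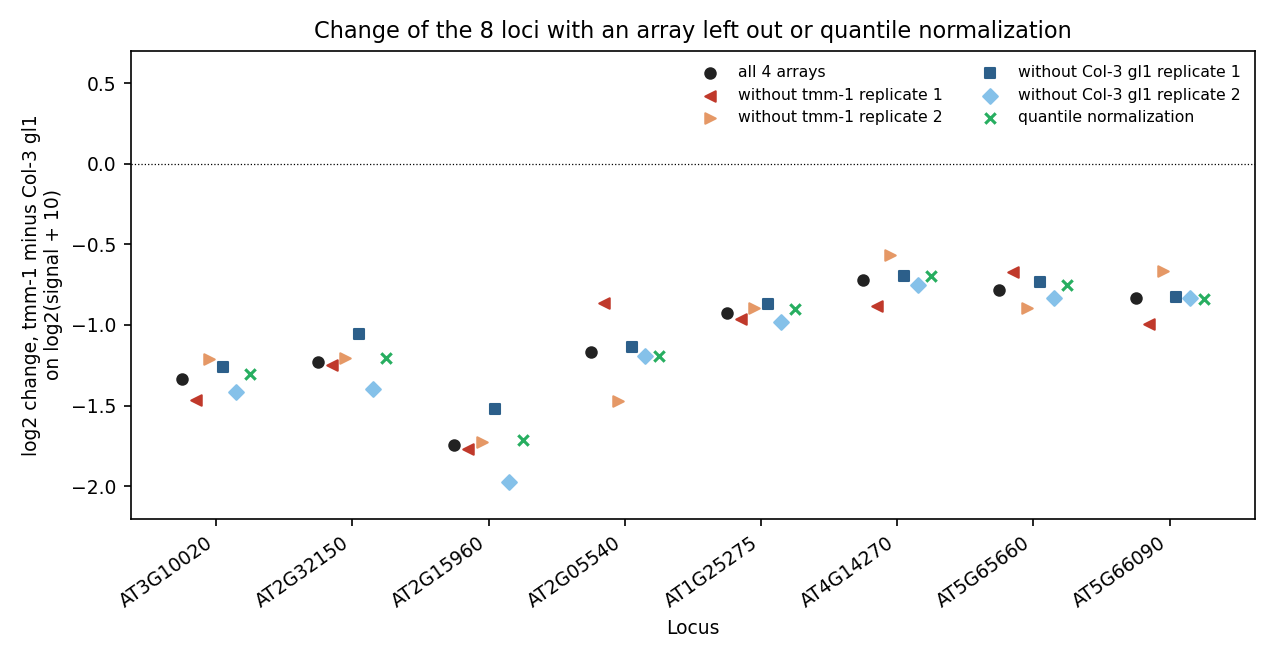
Change of the 8 loci between tmm-1 and Col-3 gl1 on log2(signal + 10), from all 4 arrays, with each array left out in turn and after quantile normalization (symbols as in the key). All symbols lie below 0, with AT2G15960 between -1.97 and -1.52 and AT1G25275 between -0.98 and -0.87 when an array was left out.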

How the data were processed

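Inflorescence tips were measured on 4 one-colour ATH1 arrays, 2 pools per line. The authors' deposited intensity values are MAS5 signals from GCOS, per the submitters' processing notes. The 2% trimmed mean was 100 on each array, so no further scaling was applied. A global scaling removes overall differences in RNA content. Of 22810 probe sets, 64 were array controls. Symbols came from a platform annotation joined through Entrez IDs to RefSeq TAIR10.1, with 13436 probe sets matched to a locus. A locus with several took that with the highest mean.

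Signals plus 10 were put on the log2 scale. Probe sets with a mean signal of at least 10 (16960) were tested in limma 3.58.1 (R 4.3.3, intensity trend, two-sided, Benjamini-Hochberg, adjusted p under 0.05). Prior degrees of freedom were 23.6, so p-values and the SEs of log2 changes rest mostly on the spread over all probe sets. The code was tested on simulated data. Precision is limited by having 4 arrays.

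The 8 loci, the lists and the tests were chosen with earlier results of these data known. The naming rule took the 8 loci, called members of each list (at most 6) or, where fewer than 4 were called, the 4 with the smallest p, and the 5 nearest profiles. AT3G10040, AT4G17260, AT1G33055, AT5G44730, CML38, AT3G03270, AT4G10270, AT3G10030, AT2G05530 and AT3G15450 were named after their values were seen, as were the markers. Planned comparisons of protein relatives and promoter motifs were not analysed here. Pool numbers were taken as replicate numbers and not as a block.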

Additional observations from a re-analysis of the deposited data

How the results depend on the processing

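Over 13 other settings, the log2 changes of the 8 loci gave 104 values, of which 0 turned positive and 11 moved by more than the spread between replicates. The filter, trend, robust and block settings leave a log2 change as it is, so their share of the 104 values was fixed. As pools did not overlap at these loci, only quantile normalization and scaling to the median could turn a sign. The median of the 8 loci, -1.05, ran from -1.13 with scaling to the median to -0.97 with 20 units added, and from -1.09 to -0.96 with an array left out. The 104 calls over all probe sets were 17 without the filter, 0 without the trend, 84 with a minimum of 30 units, and 80 to 572 with an array left out, the highest without tmm-1 replicate 1. The lone sample is then assumed to vary like the other line. Prior degrees of freedom were at least 141 in these fits, so their calls use little or none of a gene's own spread. When pools were paired by number in a replicate block, limma called 191, among them 2 of the hypoxia list (PDC2 and AT4G17670). The deviations of same-numbered pools correlated at 0.03 over all tested probe sets. This single value cannot tell whether same-numbered pools were handled together, which the labels do not say. Leaving out an array gave 0 to 2 calls in the hypoxia list, 2 to 4 in the low-energy list and 0 to 1 among neighbours. In the low-energy list 1 was called without the filter and 0 without the trend. Its gene PPDK, with a control mean of 19.9 units, was not called after quantile normalization (limma, adjusted p = 0.126) or with a minimum of 30 units (adjusted p = 0.0536). The neighbours' median ran from -0.067 without tmm-1 replicate 2 to 0.281 without tmm-1 replicate 1, and that of all probe sets was -0.0486 with scaling to the median. The cause was not tested. No alternatives were run for the oxygen-sensing factors, protein relatives or promoter motifs.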
